A study of Mus musculus with 18 samples.

Results

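Antigen presentation in epidermal cells was followed through 10 genes chosen by symbol from the 23951 genes of the deposited expression table, by a rule that uses no measured value. The 7 class I genes were H2-K1, H2-D1, B2m, Tap1, Tap2, Psmb8 and Psmb9, and the 3 class II genes were Cd74, H2-Aa and H2-Ab1. All 10 passed the filter on low values, which kept 12751 genes for testing. The study induced a psoriasis-like disease by deleting JunB and c-Jun in the skin, and RNA-seq was run on 18 libraries from 6 mice, 3 per group. The DKO* mice (814, 815 and 817) carried JunB f/f, c-Jun f/f and K5-Cre-ERT, a Cre that tamoxifen activates in keratin 5 expressing cells, together with the mT/mG reporter, which switches a cell from Tomato to GFP when Cre acts. The control mice (Co; 810, 825 and 828) carried the K5 Cre with wild-type or heterozygous JunB and c-Jun and the same reporter, so that Cre, reporter and tamoxifen were shared by all groups. The animals were 8-week-old males and females of mixed background that received 4 daily injections of 2 mg of tamoxifen, and ear epidermis was sorted on day 7. Live CD45- CD49f-high cells were split into CD34+ bulge hair follicle stem cells (HF-SC) and CD34- basal keratinocytes (b-KC). Cells of DKO* mice were further split by the reporter into GFP cells, in which Cre had acted on it, and Tom cells, in which it had not. Each cell type thus gave a Co, a GFP and a Tom group, 6 groups in all. The 4 DKO* populations came from the same mice, as did both Co populations, so comparisons of GFP and of Tom cells with Co share their controls.

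Class I molecules are carried by nearly all nucleated cells and show peptides from proteins made inside the cell to CD8 T cells. H2-K1 and H2-D1 encode their heavy chains and B2m the light chain, Tap1 and Tap2 form the transporter that moves peptides into the endoplasmic reticulum, and Psmb8 and Psmb9 are subunits of the immunoproteasome that cuts the peptides. Class II molecules show peptides taken up from outside to CD4 T cells. H2-Aa and H2-Ab1 encode the alpha and beta chain, and Cd74 is the invariant chain that guides them to the endosome. Class II is constitutive in dendritic cells, Langerhans cells and B cells, and keratinocytes are known to express it under interferon gamma through the transactivator Ciita.

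The region before the start site is shown for 2 class II and 2 class I genes, because the class II genes moved together in these data and H2-K1 and B2m did not pass the test with them. Sequences are the 250 bases before the start in the RefSeq promoter table (assembly GRCm38.p6), and each was placed by its single exact match on its chromosome in NCBIM37/mm9, the build of the deposited values. Capitals mark matches on either strand to the Y box CTGATTGG, the X2 box TGACGTCA, the NF-kB element GGGATTCCC and the core of the interferon regulatory factor element AANNGAAA. The AP-1 element TGANTCA, a kind of site that Jun proteins bind, was also searched, and its letters were not in the 4 windows. The X2 box TGACGTCA, marked in H2-Aa, has the same outer letters TGA and TCA, with CG rather than N between them. Other forms of site for Jun proteins were not searched as such, so the absence of TGANTCA does not show that the windows hold no Jun site.
H2-Aa, chr17:34424769-34425018, minus strand: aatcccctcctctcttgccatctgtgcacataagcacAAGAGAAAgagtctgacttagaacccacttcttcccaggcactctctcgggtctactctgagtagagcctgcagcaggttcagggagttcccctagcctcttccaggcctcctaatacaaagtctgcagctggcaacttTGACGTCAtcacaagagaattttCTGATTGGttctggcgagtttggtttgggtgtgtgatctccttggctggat
H2-Eb1, chr17:34442562-34442811, plus strand: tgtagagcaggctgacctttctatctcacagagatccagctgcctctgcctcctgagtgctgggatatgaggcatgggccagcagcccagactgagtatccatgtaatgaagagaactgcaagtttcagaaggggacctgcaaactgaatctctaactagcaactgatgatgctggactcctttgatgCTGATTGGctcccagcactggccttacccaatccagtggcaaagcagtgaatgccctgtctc
H2-K1, chr17:34137293-34137542, minus strand: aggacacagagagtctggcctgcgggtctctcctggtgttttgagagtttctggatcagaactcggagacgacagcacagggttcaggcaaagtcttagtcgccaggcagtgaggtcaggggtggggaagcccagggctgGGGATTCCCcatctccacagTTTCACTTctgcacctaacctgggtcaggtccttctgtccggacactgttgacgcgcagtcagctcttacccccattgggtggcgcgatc
B2m, chr2:121973173-121973422, plus strand: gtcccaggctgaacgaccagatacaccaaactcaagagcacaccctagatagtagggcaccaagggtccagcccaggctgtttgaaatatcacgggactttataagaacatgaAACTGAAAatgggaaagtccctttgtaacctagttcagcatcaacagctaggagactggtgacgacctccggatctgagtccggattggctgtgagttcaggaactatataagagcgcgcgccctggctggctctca
The Y box, an element of class II promoters, was found in H2-Aa from 51 to 44 bases before the start and in H2-Eb1 from 62 to 55 bases before it, against 3.83% of the 32851 promoters in the table. It also stood in the windows of the class I pathway genes H2-D1, Tap1 and Psmb9, which are not printed. The X2 box was found in H2-Aa alone of the 4 and in 1.55% of promoters. The NF-kB element was found in H2-K1 and also in H2-D1, and in 0.301% of promoters. Cores of the interferon regulatory factor element stood in H2-Aa, H2-K1, H2-D1 and B2m and in 21.3% of promoters, and the AP-1 element in 6.75%. Such matches describe letters and do not show that a factor bound there. Of the 10 genes, 7 had an entry in the table, and Tap2, H2-Ab1 and Cd74 were not matched.

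Values are FPKM, fragments per kilobase of transcript normalised to the number of mapped reads, so that levels of different genes can be set side by side. No member was listed at 0 in any library. The deleted genes followed the labels in the GFP cells: Jun stood at 835 to 1086 FPKM in HF-SC Co and at 30.4 to 88.4 in HF-SC GFP, and at 876 FPKM or more in b-KC Co and 29.6 to 65.4 in b-KC GFP. Junb fell by 2.88 and by 3.69 on the log2 scale in GFP cells of HF-SC and of b-KC (adjusted p = 2.89e-06 and 7.88e-07, limma). Tom cells were between, and Jun in them was also below Co (log2 fold change -1.30 in HF-SC Tom and -1.94 in b-KC Tom, adjusted p = 0.0155 and 0.00114). The first of these calls was lost without mouse 814, 815, 825 or 828, with an adjusted p of up to 0.0736. Junb was below Co in b-KC Tom as well (-1.27, adjusted p = 0.00308, limma). In HF-SC Tom its change of -0.56 did not pass (adjusted p = 0.147, limma). Krt5 was at 2299 to 7318 FPKM in every library. Krt14 was listed at 0 in 3 b-KC libraries, GFP of mouse 817 and Tom of mice 814 and 817, beside at least 2085 FPKM in the other 15 libraries. An exact 0 in this table can therefore be a failed estimate and does not show that a gene was not expressed. Cd34, the marker of the sort, was at 639.8 to 889 FPKM in HF-SC Co and at 1.13 to 2.04 in b-KC Co. Some bulge markers fell in the populations described below: of 9 tested, 4 fell in HF-SC GFP (Cd34, Lgr5, Lhx2 and Cd200) and 5 in HF-SC Tom, where 20% and 22.1% of all genes fell. Among b-KC 1 fell in GFP and 5 in Tom cells, where 21.3% and 23.3% of all genes fell. Cd34 fell by 1.89 and by 1.35 log2 units in GFP and Tom cells of HF-SC (adjusted p = 0.000587 and 0.00575, limma). The part of these shifts in the antigen presentation values was not tested. The implied depth was 16.5 to 26.3 M reads per library.

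Mouse 817 stood apart from the other DKO* mice in the class I genes. H2-K1, H2-D1, B2m, Tap1, Psmb8 and Psmb9, 6 of the 10 members, were lowest in mouse 817 among the 3 DKO* mice in each of the 4 DKO* populations, against 11.6% of the 12751 genes tested. Of these same genes tested, 6.27% were lowest in mouse 814 in all 4 populations and 0.753% in mouse 815, and no member was in either set. In HF-SC Tom cells the values of mouse 817 were 0.237 times the mean of the other DKO* mice for B2m, 0.283 times for Psmb9 and 0.28 times for Psmb8. Its HF-SC libraries also held the highest sums of leukocyte markers, and its Tom cells kept more Jun (614 FPKM in HF-SC Tom and 400.4 in b-KC Tom) than those of mice 814 and 815 (162.8 to 332). Counts of called members are therefore given below with and without mouse 817.

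**Figure D1:**
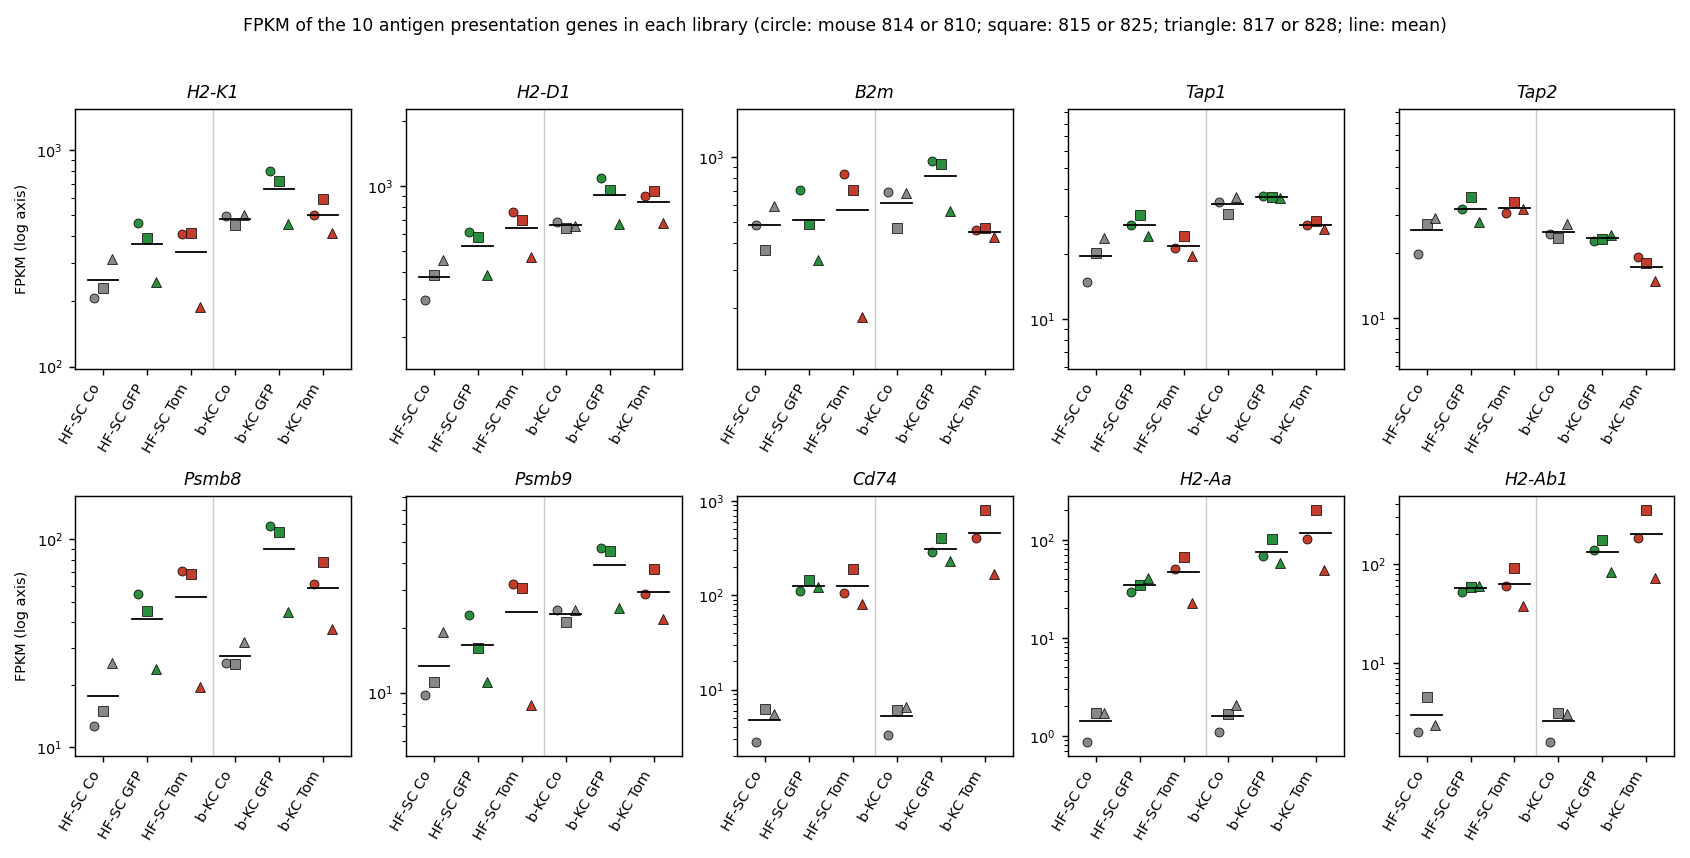
FPKM on a log axis for each of the 10 genes in each of the 18 libraries, with 1 symbol per mouse and a line at the group mean of 3. The class II genes Cd74, H2-Aa and H2-Ab1 rise from at most 6.53 in both Co groups to at least 22.9 in all 4 DKO* groups, whereas the class I genes overlap more between groups and mouse 817 (triangles of the DKO* groups) is low.

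The 3 class II genes were far higher in all 4 DKO* populations than in Co, and their DKO* and Co libraries did not overlap. Among all genes tested, every DKO* library was above every Co library for 24.7% and 24.4% in GFP and Tom cells of HF-SC and for 27.97% and 31.6% in those of b-KC. Cd74, at chr18:60963502-60972300 in mm9 on the plus strand, was at 2.75, 6.21 and 5.45 FPKM in HF-SC Co and at 3.32, 6.07 and 6.53 FPKM in b-KC Co. In HF-SC GFP it was at 109.8, 144 and 123 FPKM and in HF-SC Tom at 105.9, 191 and 81.0 FPKM, in the order of mice 814, 815 and 817. In b-KC GFP it was at 287, 400.6 and 229.8 FPKM and in b-KC Tom at 400.3, 805 and 167 FPKM. Cd74 was thus raised in every mouse, and the b-KC Tom library of mouse 815 was the highest of the 18. The group means were 26.2 times the Co mean in HF-SC GFP and 26.2 times in HF-SC Tom, 57.6 times in b-KC GFP and 86.2 times in b-KC Tom. In that highest library Cd74 passed B2m, which was at 471 FPKM there.

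H2-Aa and H2-Ab1 followed Cd74 at lower levels. H2-Aa (chr17:34406276-34424772, minus strand) was at 0.867, 1.70 and 1.73 FPKM in HF-SC Co and at 29.7, 34.5 and 40.3 FPKM in HF-SC GFP. It was at 50.2, 67.4 and 22.9 FPKM in HF-SC Tom, at 1.09, 1.65 and 2.06 in b-KC Co, at 69.1, 100.7 and 57.4 in b-KC GFP and at 101.3, 199.8 and 49.7 in b-KC Tom. H2-Ab1 (chr17:34400154-34406363, plus strand) rose from 2.04, 4.62 and 2.41 FPKM in HF-SC Co to 52.7, 59.5 and 59.8 in the GFP and 60.7, 92.0 and 37.9 in the Tom cells. In b-KC it rose from 1.63, 3.18 and 3.08 FPKM in Co to 138.9, 174 and 83.3 in GFP and 182, 348 and 72.7 in Tom. The alpha chain was below the beta chain in all 18 libraries, at 0.368 to 0.827 times its FPKM, and the invariant chain was 1.34 to 2.76 times the beta chain. H2-Aa and H2-Ab1 overlap by 88 bases in the annotation, and the libraries kept no strand, so reads from that stretch cannot be told apart.

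On the log2(FPKM + 1) scale, where the differences of low genes are understated, the change of Cd74 was 4.49 ± 0.45 (SE, n = 3 against 3) in HF-SC GFP, and for HF-SC Tom it was 4.41 ± 0.45 (adjusted p = 2.1e-06 and 2.08e-06, limma). Among b-KC it was 5.61 ± 0.45 for GFP and 5.95 ± 0.45 for Tom cells (adjusted p = 7.48e-07 and 2.94e-07, limma). The changes of H2-Aa were 3.89, 4.19, 4.86 and 5.30 ± 0.42 and those of H2-Ab1 3.91, 3.97, 5.17 and 5.56 ± 0.45 in the same order. The medians over the 3 class II genes were 3.91, 4.19, 5.17 and 5.56, beside medians of -0.05, -0.04, -0.03 and -0.02 over all genes tested. Under the 156 alternative values computed for these genes, which included leaving out each mouse, every one kept its direction and its call, with log2 fold changes from 3.66 to 6.54.

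**Figure D2:**
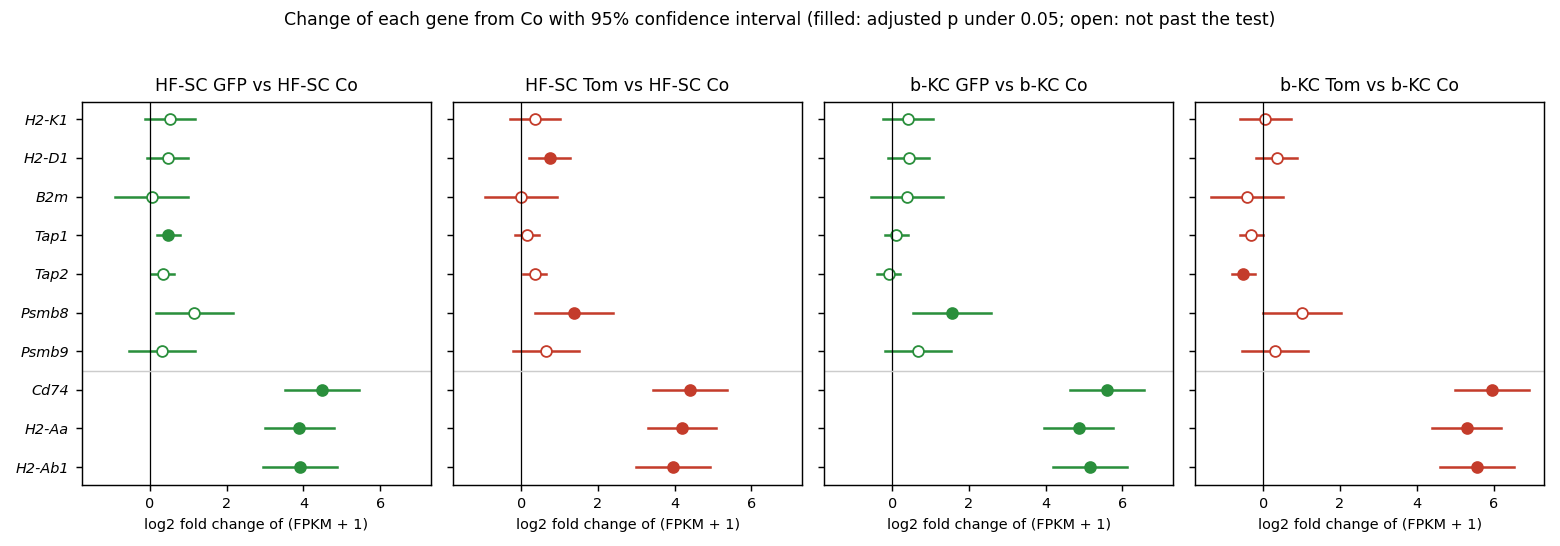
Log2 fold change of each gene from Co in the 4 DKO* populations, with the 95% confidence interval from the fit; filled points passed the test at an adjusted p under 0.05 and open points did not. The 3 class II genes lie between 3.89 and 5.95, and the class I genes between -0.52 and 1.56.

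With the class I genes included, 4 of the 10 members rose in HF-SC GFP (1 of 7 class I and 3 of 3 class II), where 18.5% of all genes tested rose. In HF-SC Tom 5 of 10 rose (2 class I and 3 class II) against 22.3% of all genes, and in b-KC GFP 4 of 10 (1 class I and 3 class II) against 20.3%. In b-KC Tom the 3 class II genes rose and the class I gene Tap2 fell, where 22.6% of all genes rose and 23.3% fell. With all mice the shares of class I genes called were thus near or below those of all genes. The median class I changes were 0.46 and 0.36 for GFP and Tom cells of HF-SC and 0.41 and 0.05 for those of b-KC. Without mouse 817 the counts of members that rose were 8, 9, 8 and 5, where 24.4%, 29.9%, 29.7% and 28.4% of all genes rose. The 3 class II genes were in each count. The others were H2-K1, H2-D1, Tap1, Tap2 and Psmb8 in HF-SC GFP, and H2-K1, H2-D1, B2m, Tap2, Psmb8 and Psmb9 in HF-SC Tom. In b-KC they were H2-K1, H2-D1, B2m, Psmb8 and Psmb9 in GFP and H2-D1 and Psmb8 in Tom cells. Most class I genes thus rose in the first 3 populations, a share above that of all genes. Mouse 817 was singled out by its low values of these same genes. Without mouse 810, 814, 815 or 825 the count in HF-SC Tom was 3, the class II genes.

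The chains of the class I molecule were abundant in Co cells, and among their changes from Co only that of H2-D1 in HF-SC Tom passed the test with all mice. H2-K1 (chr17:34132962-34137278, minus strand) averaged 251 ± 55.6 FPKM (SD, n = 3) in HF-SC Co, 368 ± 110.1 in the GFP and 338 ± 129 in the Tom cells. In b-KC it averaged 483 ± 26.4 in Co, 660.2 ± 179.6 in GFP and 505 ± 92.6 in Tom. None of these differences from Co passed the test (adjusted p from 0.199 to 0.92, limma). In mice 814 and 815 H2-K1 was at 394 to 462 FPKM in HF-SC GFP, above the Co range of 209 to 314, whereas mouse 817 was within it at 247. Without mouse 817, H2-K1 passed the test in HF-SC GFP, HF-SC Tom and b-KC GFP.

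H2-D1 (chr17:35399675-35404444, plus strand) was at 297, 388 and 457 FPKM in HF-SC Co and at 761, 699 and 471 FPKM in HF-SC Tom, all 3 above Co. It rose there by 0.75 ± 0.25 log2 units (adjusted p = 0.025, limma), a call that was lost without mouse 810, 814, 815 or 825 (adjusted p of up to 0.13). In HF-SC GFP it was at 615, 582 and 388 FPKM, with a log2 fold change of 0.46 that did not pass (adjusted p = 0.157, limma). In b-KC GFP and b-KC Tom its changes were 0.43 and 0.35 (adjusted p = 0.179 and 0.274, limma). The 2 heavy chains are close copies of each other, and the mice were of mixed background while the reads were aligned to 1 reference haplotype, so the split between them is uncertain.

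B2m (chr2:121973422-121978819, plus strand) averaged 485 ± 111 FPKM in HF-SC Co, 511 ± 184.6 in the GFP and 572 ± 344 in the Tom cells. In HF-SC Tom its 3 libraries were at 833, 702 and 182 FPKM, so that mouse 817 was below every Co library and the other mice above them. In b-KC it was at 693, 472 and 685 FPKM in Co, at 961, 933 and 566 in GFP and at 459.7, 471 and 427 in Tom. No change of B2m from Co passed the test (log2 fold changes 0.04, -0.01, 0.39 and -0.43, adjusted p from 0.453 to 0.994, limma). The sign in the HF-SC populations depended on the mouse left out. Without mouse 817 it rose in HF-SC Tom by 0.68 and in b-KC GFP by 0.64 (adjusted p = 0.0236 and 0.0319, limma).

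The transporter genes Tap1 and Tap2 each passed the test against Co in 1 population. Tap1 (chr17:34324498-34334170, plus strand) was at 14.8, 20.2 and 23.6 FPKM in HF-SC Co and at 27.3, 30.1 and 24.2 in HF-SC GFP, all above Co. Its rise of 0.47 ± 0.14 passed the test (adjusted p = 0.0162, limma) but not without mouse 810, 814 or 815 (adjusted p of up to 0.118). In HF-SC Tom it was at 21.2, 24.2 and 19.4 FPKM, which overlapped Co. In b-KC Tom Tap1 was at 27.1, 28.3 and 26.0 FPKM, below the 34.8, 30.4 and 36.5 of b-KC Co, and its change of -0.31 missed the threshold (adjusted p = 0.0891, limma).

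Tap2 (chr17:34340472-34353266, plus strand) fell in b-KC Tom, from 24.6, 23.6 and 27.2 FPKM in Co to 19.1, 17.98 and 14.8, a log2 fold change of -0.52 ± 0.14 (adjusted p = 0.0077, limma). In b-KC GFP it was at 22.8, 23.2 and 24.2 FPKM with a change of -0.10 that did not pass. In HF-SC it was at 19.9, 27.3 and 29.1 FPKM in Co, at 31.8, 36.5 and 27.8 in GFP and at 30.6, 34.6 and 32.1 in Tom. Those differences of 0.33 and 0.35 did not pass (adjusted p = 0.077 and 0.0541, limma). The change of Tap2 in Tom cells differed between HF-SC and b-KC by 0.88 ± 0.20 (adjusted p = 0.0074, limma), where 10.3% of all genes had a positive difference of this kind. Without mouse 815 that call was lost (adjusted p = 0.0626).

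Of the 2 immunoproteasome subunits among the 10 genes, Psmb8 passed the test in 2 populations and Psmb9 in none. Psmb8 (chr17:34334666-34338399, plus strand) was at 25.4, 25.1 and 32.2 FPKM in b-KC Co and at 115.5, 108 and 44.7 in b-KC GFP, all above Co. It was at 61.0, 77.7 and 37.3 FPKM in b-KC Tom, also above Co. In HF-SC it was at 12.7, 15.01 and 25.5 FPKM in Co, at 54.5, 45.1 and 23.9 in GFP and at 70.6, 68.5 and 19.5 in Tom, so that mouse 817 overlapped Co in both fractions. Psmb8 passed the test in b-KC GFP (1.56 ± 0.48, adjusted p = 0.0167, limma) and HF-SC Tom (1.38 ± 0.48, adjusted p = 0.0282, limma). Both calls were lost without mouse 810, 814, 815 or 825, with an adjusted p of up to 0.1 and 0.155. The changes in HF-SC GFP (1.15) and b-KC Tom (1.01) did not pass (adjusted p = 0.0668 and 0.0935, limma). Both did once the mouse entered as a random block (adjusted p = 0.025 and 0.0403, limma). These comparisons are between different mice, so the block pairs no libraries in them. It also used a single within-mouse correlation of 0.274 for all genes.

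Psmb9 (chr17:34318932-34324697, minus strand) averaged 13.3 ± 4.96 FPKM in HF-SC Co, 16.7 ± 5.86 in the GFP and 23.7 ± 12.9 in the Tom cells. In b-KC it was at 24.1, 21.3 and 24.2 FPKM in Co, at 46.9, 45.1 and 24.6 in GFP and at 28.6, 37.2 and 21.999 in Tom. Its log2 fold changes of 0.30, 0.65, 0.67 and 0.30 did not pass the test (adjusted p from 0.196 to 0.582, limma). Without mouse 817, Psmb9 passed in HF-SC Tom and b-KC GFP. Psmb9 and Tap1 are transcribed away from each other and overlap by 200 bases in the annotation, which again cannot be separated without strand.

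**Figure D3:**
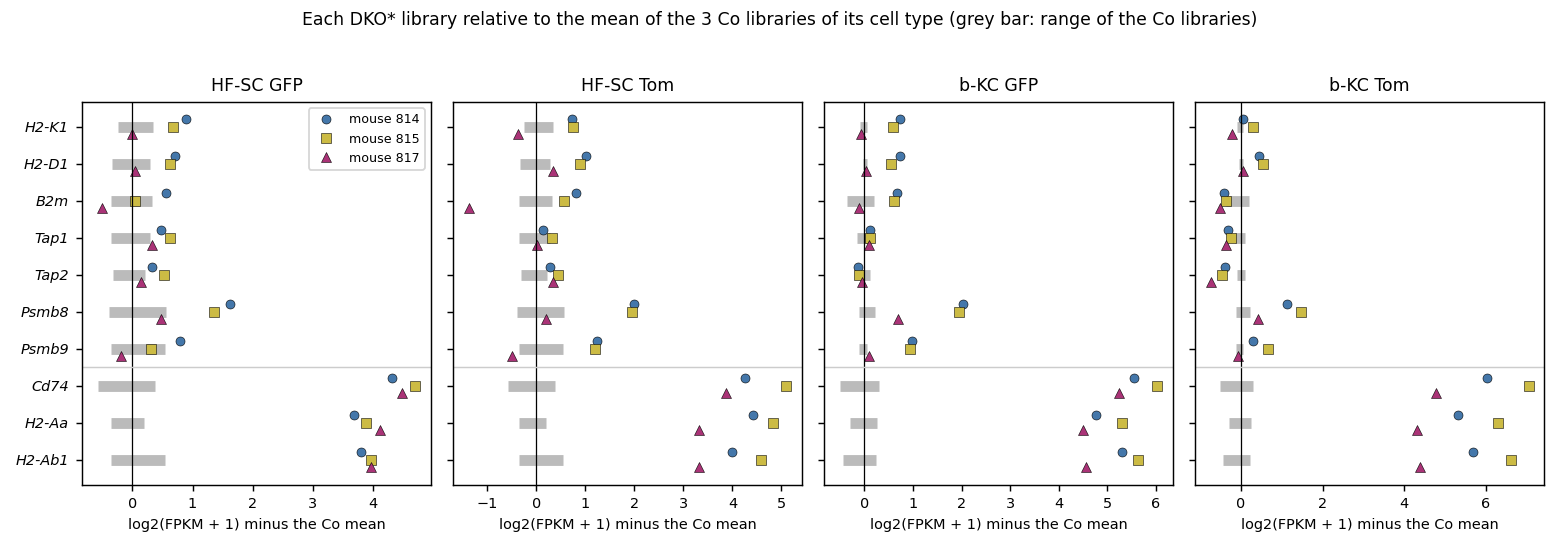
Each DKO* library relative to the mean of the 3 Co libraries of its cell type, in log2(FPKM + 1), for the 10 genes in the 4 DKO* populations, with 1 symbol per mouse and the range of the Co libraries as a grey bar. Mouse 817 (triangles) lies at or near the Co range for H2-K1, H2-D1 and Psmb9, while all 3 mice lie well above it for Cd74, H2-Aa and H2-Ab1.

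The immunoproteasome subunits take the place of constitutive subunits, Psmb8 of Psmb5, Psmb9 of Psmb6 and Psmb10 of Psmb7. Psmb10, which is not among the 10 genes, rose in all 4 populations, by 1.34, 1.73, 1.80 and 1.89 log2 units (adjusted p = 0.00664, 0.000902, 0.00102 and 0.000508, limma). Its FPKM went from 4.55 to 7.53 in HF-SC Co to 12.8 to 21.4 in HF-SC GFP, and from 9.40 to 10.2 in b-KC Co to 23.1 to 48.8 in b-KC GFP. The ratio of Psmb10 to Psmb7 was 0.0663 to 0.0907 in HF-SC Co and 0.0700 to 0.0881 in b-KC Co, and 0.135 to 0.2497 in the 12 DKO* libraries, with no overlap. The ratio of Psmb9 to Psmb6 overlapped, at 0.0543 to 0.119 in HF-SC Co and 0.0508 to 0.147 in HF-SC Tom. The ratio of Psmb8 to Psmb5 was 0.119 to 0.175 in b-KC Co and lay above that in b-KC GFP, at 0.178 to 0.2525. It overlapped Co in b-KC Tom, at 0.111 to 0.183. In HF-SC it was 0.107 to 0.239 in Co, 0.180 to 0.2975 in GFP and 0.147 to 0.367 in Tom, with overlap. The constitutive subunits moved as well: Psmb5, Psmb6 and Psmb7 rose in b-KC GFP (0.90, 0.75 and 0.69) and b-KC Tom (0.87, 0.71 and 0.66), and Psmb5 rose in HF-SC Tom (0.75). Those 7 calls were lost without mouse 815, that of Psmb5 in HF-SC Tom also without mouse 814, 825 or 828, and those of Psmb7 also without mouse 825 or 828.

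**Figure D4:**
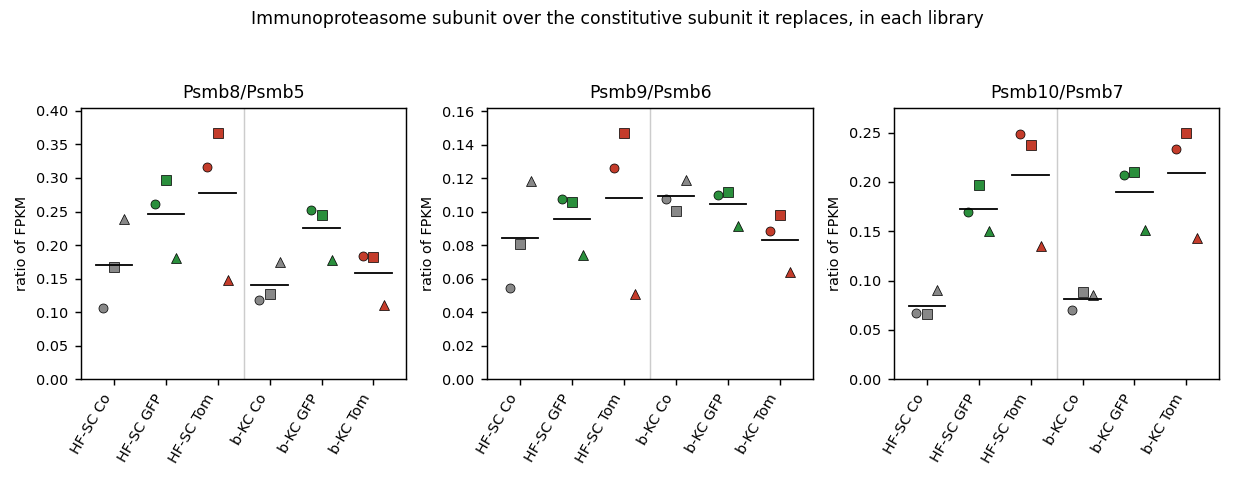
Ratio of the FPKM of each immunoproteasome subunit to that of the constitutive subunit it replaces, in each of the 18 libraries with a line at the group mean. Only for Psmb10 over Psmb7 do all DKO* libraries (0.135 and above) lie above all Co libraries (0.0907 and below).

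Other genes of the class I pathway moved in part. Of the 20 tested, 7 rose in GFP and 6 in Tom cells of HF-SC, while among b-KC 6 rose in GFP and 8 in Tom cells and 3 fell in the latter. Of all genes tested 18.5%, 22.3%, 20.3% and 22.6% rose in that order, and 23.3% fell in b-KC Tom. The median changes of the list were 0.32, 0.51, 0.14 and 0.08. Erap1, the aminopeptidase that trims peptides in the endoplasmic reticulum, rose in all 4 (1.00, 1.04, 0.50 and 0.86, adjusted p from 0.000106 to 0.0237, limma). It was at 13.3 to 14.5 FPKM in HF-SC Co and at 26.0 to 32.2 in HF-SC GFP, and the call in b-KC GFP was lost without each mouse other than 817 (adjusted p of up to 0.09). Psme2, a subunit of the proteasome activator PA28, rose by 1.30 in HF-SC Tom and by 1.25 and 1.48 in GFP and Tom cells of b-KC, the call in b-KC GFP being lost without mouse 815. The class I related gene H2-T22 rose in HF-SC Tom (0.78) and fell in b-KC Tom (-0.69), and each call was lost without any of 4 of the mice. H2-L, a near copy of H2-D1, was at 11.9, 21.3 and 4.61 FPKM in b-KC Tom and at 1.75, 1.43 and 0.00075 in b-KC Co. That difference passed the test (2.64, adjusted p = 0.021, limma) and was lost without mouse 814, 815 or 828. How the counting divided reads between these close copies is uncertain. Cd1d1, which presents lipids, was at 0.444 to 0.551 FPKM in b-KC Co and at 0.658 to 3.03 in b-KC Tom, and it passed the filter only through DKO* libraries and is given with no test. Without it 7 of 19 genes of the list rose in b-KC Tom.

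The rest of the class II pathway moved in part. Of its 17 genes in the table, 11 could be tested, of which 5 rose in each HF-SC population, 4 in GFP and 5 in Tom cells of b-KC, while 1 fell in HF-SC Tom and 2 in b-KC Tom. Of all genes tested 18.5%, 22.3%, 20.3% and 22.6% rose in the 4 comparisons, and 22.1% and 23.3% fell in the Tom comparisons of HF-SC and b-KC. Ciita and Ctss reached 1 FPKM in DKO* libraries only, and of the other 9 genes 3, 3, 3 and 4 rose. H2-Eb1, the beta chain of the other class II molecule, rose in all 4 by 3.41, 3.48, 4.26 and 4.53 log2 units (adjusted p from 2.74e-06 to 2.69e-05, limma). It was at 0.584, 1.03 and 1.25 FPKM in HF-SC Co and at 16.4, 19.9 and 22.7 in HF-SC GFP. In b-KC it was at 0.852, 1.96 and 2.49 FPKM in Co, at 42.6, 62.1 and 48.0 in GFP and at 58.5, 129.7 and 29.0 in Tom. H2-DMa, one chain of the molecule that exchanges the Cd74 fragment for peptide, rose in all 4 by 1.13, 1.58, 2.45 and 3.18 (adjusted p from 9.93e-06 to 0.0215, limma), and the first of these calls was lost without mouse 810, 814 or 825 (adjusted p of up to 0.0901). Its partner H2-DMb1 rose in b-KC, by 1.82 in GFP and 2.19 in Tom cells, from 1.61 to 3.85 FPKM in Co. In HF-SC Co H2-DMb1 already stood at 11.4 to 14.96 FPKM, and at 8.35 to 8.86 in HF-SC GFP, a change of -0.55 that did not pass.

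Ciita, the transactivator of class II genes, was near the limit of detection in Co and present in every DKO* library. It was at 0, 0.0526 and 0.0242 FPKM in HF-SC Co, at 0.502, 0.667 and 0.695 in HF-SC GFP and at 0.669, 1.05 and 0.480 in HF-SC Tom. In b-KC it was at 0.0254, 0.0260 and 0.125 FPKM in Co, at 1.42, 2.13 and 1.76 in GFP and at 2.54, 4.19 and 1.13 in Tom. Ciita passed the filter on low values only through DKO* libraries, so its values are given as a description, with no test. A value of 3 reads on 1 kilobase came to 0.114 to 0.182 FPKM in these libraries.

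The lysosomal proteases that act on Cd74 and its cargo were less uniform. Ctss, cathepsin S, was at 0.316 to 0.395 FPKM in HF-SC Co, at 1.55, 1.74 and 9.23 in GFP and at 1.69, 2.33 and 4.54 in Tom cells, and like Ciita it passed the filter only through DKO* libraries and is given with no test. The highest values were both from mouse 817, as were the highest leukocyte marker sums. In b-KC Ctss was at 0.0634 to 0.67 FPKM. Lgmn, the asparagine endopeptidase, rose in HF-SC Tom (1.39) and b-KC Tom (0.98), and was lower in GFP than in Tom cells of HF-SC (-1.24, adjusted p = 0.0127, limma).

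**Figure D5:**
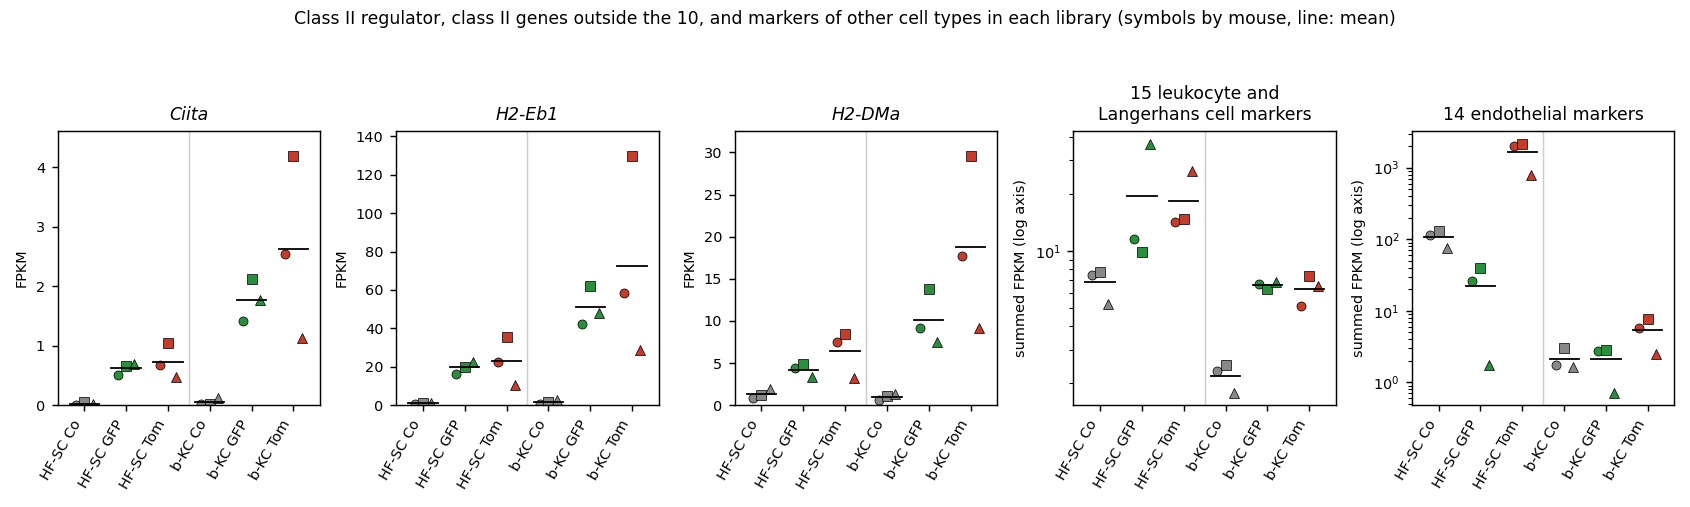
FPKM of Ciita, H2-Eb1 and H2-DMa on linear axes, and the summed FPKM of 15 leukocyte and Langerhans cell markers and of 14 endothelial markers on log axes, in each of the 18 libraries. The means of the 3 class II pathway genes are higher in b-KC than in HF-SC of DKO* mice, whereas the leukocyte sums are higher in HF-SC and the endothelial sum is highest in HF-SC Tom (778 and above).

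Cells that carry class II constitutively were checked by their markers, since sorted populations can hold other cells, and in bulk RNA more cells of a type and more RNA per cell cannot be told apart. The summed FPKM of the 15 leukocyte and Langerhans cell markers in the table was 5.22 to 7.77 in HF-SC Co, 9.84 to 36.9 in HF-SC GFP and 14.1 to 26.4 in HF-SC Tom. It was 1.78 to 2.49 in b-KC Co, 6.28 to 6.83 in b-KC GFP and 5.10 to 7.38 in b-KC Tom, so these markers moved with the class II genes. Of the 15 markers 5 passed the filter on low values, and Itgam, Tyrobp and Fcer1g did so only through DKO* libraries, so called markers are not counted here. The largest values were in the HF-SC GFP library of mouse 817, with Fcer1g at 9.40, Lyz2 at 8.16, Cd68 at 6.43, Tyrobp at 4.46 and Csf1r at 3.14 FPKM. Other markers were near 0: Ptprc, which encodes CD45, reached at most 0.946 FPKM in HF-SC and 0.0636 in b-KC, and the Langerhans cell gene Cd207 at most 1.07 and 0.957. The dendritic cell gene Itgax stayed at or under 0.0732 FPKM in all libraries. Against these sums Cd74 alone was at 167 to 805 FPKM in the DKO* b-KC. The highest leukocyte sum, 36.9 in the HF-SC GFP library of mouse 817, came with 123 FPKM of Cd74, between the values of mice 814 and 815. Across the b-KC Tom libraries the highest sum, 7.38, and the highest Cd74, 805, were both in mouse 815. The part of these cells in the class II values was not tested beyond these measurements.

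The endothelial markers told the HF-SC populations apart. Their sum over 14 genes was 75.9 to 131 FPKM in HF-SC Co, 1.73 to 39.2 in HF-SC GFP and 778 to 2173 in HF-SC Tom, and at most 7.75 in any b-KC library. In HF-SC Tom the sums of mice 814, 815 and 817 were 2002, 2173 and 778 FPKM, beside 761, 699 and 471 FPKM of H2-D1. The part of these cells in the HF-SC Tom values was not tested.

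GFP and Tom cells of the same mice were compared, which differ in the action of Cre but not in that alone. In HF-SC the endothelial marker sums were 1.73 to 39.2 FPKM in GFP and 778 to 2173 in Tom cells. In b-KC Tom cells Jun and Junb were themselves below Co. The comparison therefore cannot isolate the loss of JunB and c-Jun in the cell itself. No member passed the test in HF-SC (0 of 10, where 8.63% of all genes did) or in b-KC (0 of 10, where 1.71% did; limma). At an unadjusted p under 0.05 there was 1 member in HF-SC, Tap1, and 2 in b-KC, Tap1 and Tap2. The differences of Cd74, GFP minus Tom, were 0.08 in HF-SC (95% confidence interval -0.88 to 1.05) and -0.34 in b-KC (-1.31 to 0.62). Those of H2-Aa were -0.30 and -0.44 and those of H2-Ab1 -0.06 and -0.39. Within mice the direction was split: in mice 814 and 815 H2-Aa and H2-Ab1 were lower in GFP than in Tom cells of both cell types, and in mouse 817 higher in both. For H2-Aa the ratio of GFP to Tom was 0.591, 0.511 and 1.76 in HF-SC and 0.683, 0.504 and 1.16 in b-KC. Tap1 was higher in GFP cells in each of the 6 within-mouse pairs, by 1.24 to 1.39 times, with differences of 0.32 in HF-SC and 0.42 in b-KC (adjusted p = 0.226 and 0.189, limma). Tap2 was higher in GFP cells in the 3 b-KC pairs, by 1.19 to 1.64 times (0.42, adjusted p = 0.176, limma). H2-K1, B2m, Psmb8 and Psmb9 were also higher in GFP cells in the 3 b-KC pairs, by 1.11 to 1.60, 1.32 to 2.09, 1.20 to 1.89 and 1.12 to 1.64 times, and H2-D1 was lower in GFP cells in the 3 HF-SC pairs. Of all genes tested, 20.1% were higher in GFP cells in all 3 b-KC pairs. In all 3 HF-SC pairs 20.6% were higher and 21.5% were lower. The share of genes higher in all 6 pairs, as Tap1 was, was not computed. Without mouse 817 the only member that passed was B2m in b-KC.

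The Co populations were compared to describe the levels in cells of mice without the deletion. H2-K1, H2-D1 and Tap1 were lower in HF-SC Co than in b-KC Co, by -0.96 ± 0.31, -0.81 ± 0.25 and -0.79 ± 0.14 log2 units (adjusted p = 0.0171, 0.0137 and 0.000308, limma). That was 3 of the 10 members, where 27.3% of all genes were lower. All HF-SC Co libraries were below all b-KC Co libraries for these 3 genes, as for 37.4% of all genes tested, with H2-K1 at 209 to 314 against 453 to 501 FPKM. Without mouse 810 or 825 the calls of H2-K1 and H2-D1 were lost (adjusted p of up to 0.136). Cd74, H2-Aa and H2-Ab1 differed by -0.13, -0.10 and 0.13 between the Co cell types (adjusted p from 0.827 to 0.861, limma), and the sign of the first 2 turned under upper quartile scaling.

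The class II genes of DKO* mice were on average higher in b-KC than in HF-SC, and the difference in their change was tested. In GFP cells the change was smaller in HF-SC by -1.11 for Cd74, -0.97 for H2-Aa and -1.26 for H2-Ab1, and none passed (adjusted p from 0.215 to 0.299, limma; 0 of 10 members, 1 at an unadjusted p under 0.05, against 12.5% of all genes called). In Tom cells it was smaller by -1.54, -1.11 and -1.59 (adjusted p = 0.1225, 0.2355 and 0.1097, limma). With the mouse as a random block 2 of these, Cd74 and H2-Ab1, passed (adjusted p = 0.0307 and 0.0285), and without mouse 817 H2-Aa and H2-Ab1 passed in GFP cells. In Tom cells 5 members then passed: the 3 class II genes with smaller changes in HF-SC, and B2m and Tap2 with a positive difference. Of the pathway genes, H2-DMb1 differed between cell types in both GFP (-2.38) and Tom cells (-2.72), and H2-DMa in Tom cells (-1.60, adjusted p = 0.0455, limma). The last was lost without each mouse other than 817 (adjusted p of up to 0.127).

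Genes of interferon signalling were counted because they govern both pathways. Of 12 tested, 6 rose in HF-SC GFP and 8 in HF-SC Tom with none falling. In b-KC GFP 2 rose and 2 fell, and in b-KC Tom 3 rose and 4 fell. Of all genes, 18.5% and 22.3% rose in GFP and Tom cells of HF-SC, 20.3% rose and 21.3% fell in b-KC GFP, and 22.6% rose and 23.3% fell in b-KC Tom, so the b-KC counts were near those of all genes. Ifng itself, the gene of interferon gamma, was listed at 0 in all 18 libraries, which does not show its absence. Ifngr1, its receptor chain, was at 33.5 to 37.7 FPKM in HF-SC Co and rose to 95.01 to 104.6 in HF-SC GFP and 87.3 to 111.6 in HF-SC Tom (1.47 in each, adjusted p = 9.76e-07 and 7.24e-07, limma). In b-KC it was at 136 to 166 FPKM in Co and 114 to 167 in DKO* cells, and its change differed between cell types (1.67 for GFP and 1.37 for Tom, adjusted p = 0.000132 and 0.000246, limma). Socs1, a feedback inhibitor that interferon induces, rose in all 4 by 0.86, 0.90, 1.30 and 1.19. Its call in HF-SC GFP was lost without mouse 810, 814, 815 or 825 and that in HF-SC Tom without mouse 825.

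Irf1, a transcription factor that acts on class I and Ciita promoters, rose in HF-SC, by 0.72 in GFP and 0.78 in Tom cells, and fell in b-KC Tom (-0.76). Each of these 3 calls of Irf1 was lost without any of 4 or 5 of the mice. Ifnar2, a chain of the type I receptor, rose by 1.26 in HF-SC Tom and by 1.21 and 1.17 in GFP and Tom cells of b-KC (adjusted p from 0.000941 to 0.00178, limma), and Ifngr2 in GFP and Tom cells of HF-SC by 1.20 and 1.15, both lost without mouse 814, 815 or 825.

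The patterns of the class I and class II members over the 18 libraries were described by Pearson correlation of log2 values, with no test, since libraries of 1 mouse are not independent. Cd74 had r = 0.997 with H2-Ab1 and 0.996 with H2-Aa, but 0.784 with Psmb8, 0.633 with H2-D1 and 0.085 with B2m. Outside the members the genes most like Cd74 were H2-Eb1 (0.992), Gsdmc2 (0.978), Plscr1 (0.963), Mab21l3 (0.962) and Cxadr (0.962), and Ciita had 0.918. B2m was most like Sdf2 (0.919), Rnf181 (0.901), Vamp8 (0.874), Gabarap (0.869) and Rab9 (0.861), none of them an antigen presentation gene, and had 0.784 with Psmb9 and 0.748 with H2-K1.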

How the data were processed

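The authors sorted the cells, amplified 4 to 10 ng of RNA with SMART-Seq v4, prepared Nextera XT libraries (12 PCR cycles, no strand), and sequenced 51-base single-end reads. Per the methods and labels, reads were aligned to NCBI37/mm9 with TopHat 2.0.10 and Bowtie 1.0.0, allowing 2 mismatches and 20 multihits, and quantified with Cufflinks 2.2.1. The deposited values are FPKM per gene, 1 column per library. Read counts were not used here, and depth was estimated from low values of genes with 1 transcript, of which 75.1% to 79.5% per library were within 0.1 of a whole read. The 3 mice per group are separate animals.

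Genes that reached 1 FPKM in 3 or more of the 18 libraries were tested on log2(FPKM + 1) with limma 3.58.1 (R 4.3.3): 1 fit over 6 group means, eBayes with a trend, Benjamini-Hochberg adjustment over the 12751 genes, called at an adjusted p under 0.05. Differences between changes were contrasts of the same fit. Libraries of the same number came from 1 mouse, and their deviations from the group means correlated at 0.084 to 0.700 over 21 pairs. Other pseudocount, filter, scaling, trend, threshold, samples, a mouse block and each mouse left out were tried. Scripts were tested on simulated data.

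The members, gene lists, markers and tests were chosen with earlier results of these data known. Members are all named, and from each of the 4 pathway lists (not the marker lists) the genes past the test in a comparison with Co are named by size of change, at most 6. 1 gene that this rule names is not reported here. For likeness, the 5 genes with the highest correlation with B2m and with Cd74 are named. The lists were class I pathway, class II pathway, constitutive proteasome, interferon signalling, and markers of leukocytes, endothelium, fibroblasts, melanocytes, basal keratinocytes and bulge cells. Summed fibroblast markers were 13.9 to 120.5 FPKM in HF-SC and 1.67 to 6.16 in b-KC, melanocyte markers 5.70 to 23.3 and 2.52 to 5.99, basal keratinocyte markers 6930 to 10920 and 5780 to 17360, and bulge markers 1236 to 12950 and 207 to 3194. Krt14 listed at 0 in 3 b-KC libraries and Krt15 at 0 in HF-SC Co of mouse 828 lower the last 2 sums in those libraries. Gene coordinates are from the GENCODE M1 annotation of mm9, and promoters from RefSeq.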

Additional observations from a re-analysis of the deposited data

Results flagged for a closer look

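Changes that differed between HF-SC and b-KC by a test of the difference itself (limma contrast of the same fit, adjusted p under 0.05) are collected here for the antigen presentation genes and the pathway genes that the report names. The lists hold further called differences, among genes not named by the rule. For the change from Co in GFP cells, the difference HF-SC minus b-KC was -2.38 for H2-DMb1 and 1.67 for Ifngr1. For the change in Tom cells it was 0.88 for Tap2, 1.47 for H2-T22, -1.60 for H2-DMa, -2.72 for H2-DMb1, 1.37 for Ifngr1 and 1.54 for Irf1. In Tom cells the calls of Tap2 and H2-T22 were lost without mouse 815, that of Irf1 without mouse 814, 815 or 825, and that of H2-DMa without each mouse other than 817. Tap2 was the only one of the 10 antigen presentation genes among them. The HF-SC Tom libraries, in which all but the first pair of these values have their base, held endothelial marker sums of 778 to 2173 FPKM against 2.52 to 7.75 in b-KC Tom, and the part of those cells in the differences was not tested.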

How the results depend on the processing

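Counts of the 10 members called are given as higher or lower. With only the groups compared in the fit, 3 were higher in HF-SC Tom against Co (5 in the full fit), 2 lower in b-KC Tom (1) and 5 lower in HF-SC Co against b-KC Co (3). Under upper quartile scaling 2 were lower in b-KC Tom. At an adjusted p under 0.01, 3 were higher in HF-SC Tom and 1 lower in HF-SC Co against b-KC Co. With a change of at least 2 log2 units required as well, 3 were higher in HF-SC Tom, and 0 lower in b-KC Tom, 0 lower in HF-SC Co and 0 higher for the Tom change between cell types. With mice left out in turn, members higher ranged from 3 to 8 in HF-SC GFP, 3 to 9 in HF-SC Tom, 3 to 8 in b-KC GFP and 3 to 5 in b-KC Tom. Those lower in HF-SC Co against b-KC Co ranged from 1 to 5, those higher in b-KC GFP against b-KC Tom from 0 to 1, those lower for the GFP change from 0 to 2, and those higher and lower for the Tom change from 0 to 2 and 0 to 3. The highest counts were without mouse 817, and the cause was not tested. With the mouse as a random block the Tom change had 2 members lower, and the paired fit of GFP against Tom with the mouse as a fixed block called 0. Beside the calls given in the report, the block changed no other call of a member. The signs that turned belonged to differences that did not pass the test in the full fit. Under upper quartile scaling, which moved the median of all genes by over 0.1 in HF-SC Co against b-KC Co (from -0.06 to 0.10), Cd74 and H2-Aa differed by 0.028 and 0.016 there, B2m by -0.060 in HF-SC GFP and H2-K1 by -0.061 in b-KC Tom. With mice left out, B2m ranged from -0.23 to 0.31 in HF-SC GFP and from -0.41 to 0.68 in HF-SC Tom, Tap1 from -0.022 to 0.30 in HF-SC Tom and H2-K1 from -0.084 to 0.18 in b-KC Tom. In HF-SC GFP against Tom, Cd74 ranged from -0.18 to 0.33, H2-Aa from -0.84 to 0.025 and H2-Ab1 from -0.41 to 0.22. In HF-SC Co against b-KC Co H2-Ab1 ranged from -0.023 to 0.32. Of 91 called values of single genes, 34 were lost without at least 1 mouse. The files hold no counts, so low values such as those of Ciita carry a counting error that is not known.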
